A study of Mus musculus with 45 samples.

Results

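Trp53, which encodes the transcription factor p53, and 9 genes that p53 activates directly (Eda2r, Ccng1, Cdkn1a, Mdm2, Bbc3, Phlda3, Bax, Trp53inp1 and Sesn2) were followed gene by gene in RNA-seq of edited mouse embryonic stem cells (ESCs). They are 10 of the 33924 genes in each of 2 expression tables, found there by symbol, and all 10 varied across the samples of both tables. The set was chosen by earlier results of these data, namely the low rlog levels of Trp53, Eda2r and Ccng1 in homozygous ΔPG cells. Differences between homozygous and heterozygous ΔPG cells are therefore given for these genes as values, with no test.

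The cells came from the D3 mouse ESC line (strain 129), in which Cas9 cutting was used to replace the lncRNA gene 5430416N02Rik. In ΔPG cells, a PGK-puro cassette stands in place of the promoter and gene body, and in ΔG cells a GFP-IRES-Puro cassette stands in place of the gene body alone. Heterozygous cells carry the replacement on 1 allele and homozygous cells on both, and each kind was grown for 48 h either with the vehicle DMSO, as undifferentiated cells (ES), or with retinoic acid (RA) at 2 µM. Each of the 8 groups has 3 biological replicates, 24 samples in all, and unedited cells were not among the RNA-seq samples used here. The study made independent clones of each genotype, but which of them gave the RNA-seq samples is not given in the sources used here, so differences between clones and between genotypes cannot be told apart. The ΔPG and ΔG samples were normalized separately, so tests were made within a line only.

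p53 is kept scarce in unstressed cells by Mdm2, a ubiquitin ligase that marks it for degradation and is itself a p53 target, which closes a feedback loop. When DNA is damaged or a cell is otherwise stressed, p53 accumulates, binds response elements near its target genes, and raises genes that halt the cell cycle, trigger apoptosis or adjust metabolism. In mouse ESCs, p53 is abundant for a cell type that divides so quickly, and it has been linked to the loss of pluripotency genes during differentiation. Retinoic acid, which acts through nuclear receptors, is a standard agent to make ESCs differentiate.

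The level of the lncRNA itself followed the labels. 5430416N02Rik (chromosome 5, 100849861 to 100858535, minus strand, NCBIM37) had log2 differences between homozygous and heterozygous cells of -2.30 in ΔPG ES, -1.81 in ΔPG RA, -2.79 in ΔG ES and -2.75 in ΔG RA samples. Pluripotency markers averaged 10.6 to 10.9 rlog (regularized log, a log2-scale value that shrinks low counts) in ES and 6.91 to 7.12 in RA samples. RA-induced markers averaged 4.61 to 4.94 and 7.57 to 8.02. Endoderm markers averaged 3.45 to 3.76 in ES and 5.57 to 6.43 in RA samples, fibroblast or feeder markers 2.28 to 2.52 and 4.09 to 4.55, neural markers 2.83 to 3.24 and 3.35 to 3.70, and trophoblast markers 1.76 to 1.94 and 2.07 to 2.46. Samples of one group correlated at 0.991 to 0.997 across genes with a mean rlog of at least 3.

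Sequences close to the p53 response element lie near the start of several of the genes. The element is a 20-base consensus made of 2 like stretches that each keep a central C and G, and it reads nearly alike on both strands. RefSeq windows of GRCm38.p6 were available for 9 of the 10 genes, all but Trp53inp1. They run from 250 bases before to 50 bases after a start of the gene. They were searched for the best match without a spacer, and only sites that keep the central C and G of both stretches were scored. For a gene with several windows, the best one is given. Cdkn1a and Ccng1 each held a site with 19 of 20 matching bases. At least 19 matches were found in 0.067% of all 32851 windows and for 0.0814% of 27025 genes. Trp53 itself and Bbc3 held a site with 17 matches, which 1.38% of windows and 1.63% of genes reach. The best matches were 15 in Phlda3, 13 in Bax and 11 in Eda2r, Mdm2 and Sesn2. This says only that no closer match with the central C and G of both stretches lies in these windows. The 3 target windows with 17 or more matches are shown because they hold the closest matches, and their genes answered RA in different ways (below 0 for Cdkn1a and above 0 for Bbc3 in all 4 kinds of cells). The best match is in capitals, at positions -51 (Cdkn1a, chr17:29090729-29091028, plus strand), -195 (Ccng1, chr11:40755237-40755536, minus strand) and -97 (Bbc3, chr7:16309333-16309632, plus strand) from the start of that window's transcript. The other Cdkn1a window (chr17:29093519-29093818) reached 13 matches, and the other Bbc3 windows 13 and 12. The limits on matches were chosen after the matches had been seen, and a match is not a shown binding site.
Cdkn1a: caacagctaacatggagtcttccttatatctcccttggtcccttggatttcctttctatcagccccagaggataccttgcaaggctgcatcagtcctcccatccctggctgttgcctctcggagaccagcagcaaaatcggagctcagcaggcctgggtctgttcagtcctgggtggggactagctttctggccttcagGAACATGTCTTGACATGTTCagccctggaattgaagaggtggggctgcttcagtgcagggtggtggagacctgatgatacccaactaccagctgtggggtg
Ccng1: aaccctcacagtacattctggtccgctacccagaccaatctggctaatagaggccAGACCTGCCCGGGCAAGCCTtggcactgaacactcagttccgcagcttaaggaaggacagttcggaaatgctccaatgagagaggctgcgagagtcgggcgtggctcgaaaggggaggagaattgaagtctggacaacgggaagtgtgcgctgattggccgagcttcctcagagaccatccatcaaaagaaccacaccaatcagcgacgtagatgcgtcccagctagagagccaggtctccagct
Bbc3: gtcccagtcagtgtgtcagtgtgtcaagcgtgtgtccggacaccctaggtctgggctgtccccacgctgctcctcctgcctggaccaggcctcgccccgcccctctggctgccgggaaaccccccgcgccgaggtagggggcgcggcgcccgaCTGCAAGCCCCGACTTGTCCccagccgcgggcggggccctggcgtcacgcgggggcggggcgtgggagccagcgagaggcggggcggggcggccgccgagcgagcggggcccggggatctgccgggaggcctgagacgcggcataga

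Trp53 (chromosome 11, 69393861 to 69405375, plus strand, NCBIM37) was high in heterozygous ΔPG cells and low in the other cells of both lines. In heterozygous ΔPG ESCs its rlog values were 7.15, 6.95 and 7.05, and in homozygous ΔPG ESCs they were 3.83, 4.00 and 4.24. After RA treatment they were 6.06, 6.19 and 5.87 in heterozygous and 4.06, 3.56 and 3.88 in homozygous ΔPG cells. All 6 heterozygous ΔPG samples lay above all 6 homozygous ones, with log2 differences of -3.02 (standard error 0.116) in ES and -2.21 (standard error 0.147) in RA samples. These correspond to 8.14-fold and 4.61-fold lower rlog-scale levels. In bulk RNA, fewer cells with the transcript and less transcript per cell cannot be told apart.

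In the ΔG line the rlog values of Trp53 were 2.45, 2.78 and 2.64 in heterozygous ES, 2.40, 2.75 and 2.24 in homozygous ES, 2.19, 2.49 and 2.17 in heterozygous RA, and 2.61, 2.88 and 2.19 in homozygous RA samples. The 4 groups overlapped, and the highest ΔG sample (2.88) had a lower value than the lowest ΔPG sample (3.56). Homozygous and heterozygous ΔG cells did not pass the test of a difference, with log2 differences of -0.16 in ES (limma adjusted p = 0.696) and 0.28 in RA (limma adjusted p = 0.417). An rlog value is pulled toward the mean of its gene in its own table, so the homozygous ΔPG and the ΔG levels cannot be set against each other exactly. Set side by side all the same, heterozygous ES samples averaged 7.05 for ΔPG and 2.62 for ΔG, a gap of -4.42, where the median gap of 11904 genes was -0.02. Those genes had a mean rlog of at least 3 over the ΔPG samples, a limit not set on the ΔG samples. Only 1 of them had a gap below that of Trp53, and it was Eda2r, with -6.25. Trp53 and Eda2r averaged under 3 in the ΔG line, so they entered only through the line where they are high. Both were also chosen for their ΔPG levels, so these ranks are descriptions only.

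Within the heterozygous ΔPG line, Trp53 fell with RA by 1.01 on the log2 scale (limma adjusted p = 5.60e-05, standard error 0.0929). The RA response in homozygous ΔPG cells was -0.19 (limma adjusted p = 0.437), and the ΔG responses were -0.34 in heterozygous (limma adjusted p = 0.0664) and 0.10 in homozygous cells (limma adjusted p = 0.702), none of which passed both limits. A gene was called when its adjusted p, over all genes of the table, was under 0.1 and its log2 difference beyond 0.5. Trp53 thus had 1 called RA response, in the cells with the highest level. After quantile normalization it was also called in homozygous ΔPG (-0.61) and heterozygous ΔG cells (-0.59). Levels of Trp53 ordered the ΔPG groups as heterozygous ES, heterozygous RA, homozygous ES and homozygous RA, and the last 2 overlapped.

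**Figure D1:**
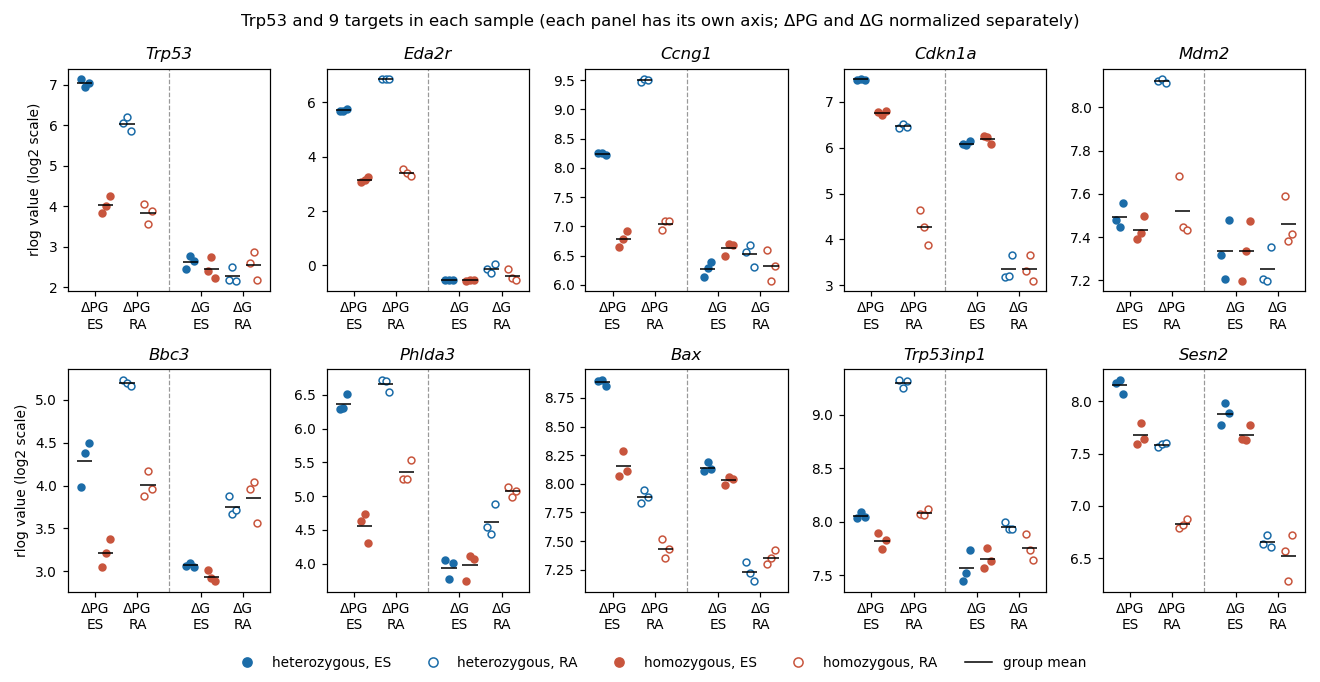
Deposited rlog values (vertical axis, log2 scale, a separate axis for each gene) of Trp53 and its 9 targets in every sample, by line and treatment, with blue points for heterozygous, red for homozygous, filled for ES, open for RA, and a line at each group mean. In heterozygous ΔPG cells Trp53 lies between 5.87 and 7.15, and in all ΔG samples between 2.17 and 2.88.

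The genes beside Trp53 were called between the ΔPG genotypes about as often as genes at large. Of the 17 varying ΔPG genes that lie within 100 kb of it, 1 was called lower in homozygous ΔPG ESCs and none after RA treatment, where 6.29% and 0.605% of all genes were called lower. The called gene was Fxr2, an RNA-binding protein gene named here after its values were seen, with a log2 difference of -0.53. Wrap53, which lies 0.1 kb from Trp53 on the other strand and does not overlap it, had values of 7.13, 7.08 and 6.96 in heterozygous and 6.61, 6.63 and 6.67 in homozygous ΔPG ESCs. Its log2 difference was -0.42 there and 0.02 after RA treatment. In the ΔG line 17 such genes varied, with Mir1934 in place of Shbg. None of them was called between genotypes, where 0.984% of all genes were in ES and 2.14% in RA samples.

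**Figure D2:**
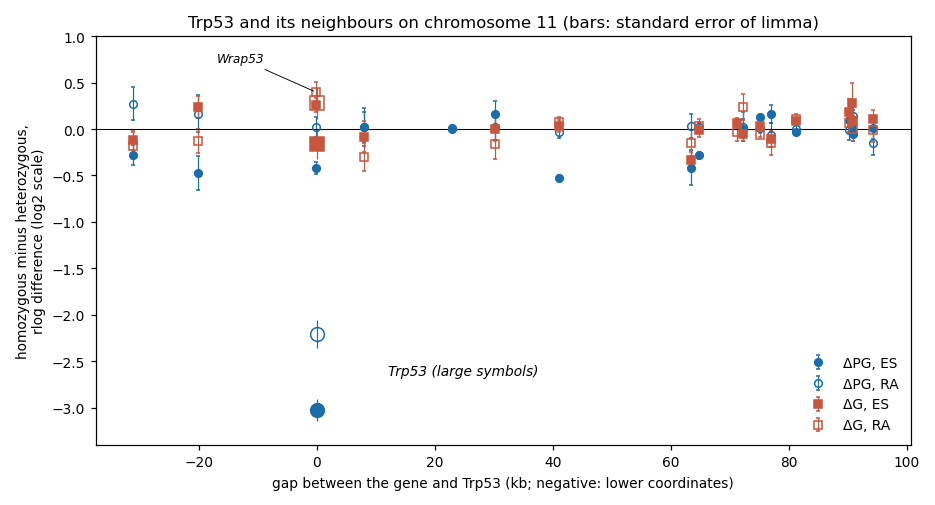
Homozygous minus heterozygous rlog difference (vertical axis, log2 scale, bars for the standard error) of Trp53 and its neighbours against their gap to Trp53 in kb (horizontal axis), with circles for ΔPG, squares for ΔG, filled for ES and open for RA. Trp53 in ΔPG cells stands at -3.02 and -2.21, while Wrap53 at -0.1 kb lies between -0.42 and 0.40.

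Every target was lower in homozygous than in heterozygous ΔPG cells. The 10 log2 differences ran from -3.02 to -0.06 in ES samples, with a median of -0.90, and from -3.44 to -0.45 in RA samples, with a median of -1.26, against medians of 0.00 and 0.01 over all 21979 genes. Samples of the genotypes did not overlap except for Mdm2 in ES, and 20.9% of all genes in ES and 8.87% in RA samples were lower in homozygous cells without overlap. Over all genes, 13.2% were called in ES and 0.846% in RA samples, which is background only, since this contrast helped to choose the genes. In ES samples the genotype differences of all genes followed GC content (Pearson's r across 11904 genes with a mean rlog of at least 3: -0.705), which was not so in RA samples (-0.00108). With the GC trend removed, the ES differences were -2.82 for Trp53, -3.20 for Eda2r and -1.99 for Ccng1. They shrank to -0.25 for Bax, -0.05 for Sesn2, -0.44 for Cdkn1a, -0.58 for Bbc3 and -1.33 for Phlda3. They grew from -0.24 to -0.93 for Trp53inp1 and from -0.06 to -0.28 for Mdm2.

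In homozygous and heterozygous ΔG cells, by contrast, the same 10 genes were tested and none was called in ES or in RA samples, where 0.984% (0.354% higher and 0.63% lower) and 2.14% (0.676% higher and 1.46% lower) of all genes were. At an unadjusted limma p under 0.05, 3 of the 10 passed in ES and 4 in RA samples, where 15.4% and 19.6% of all genes did. The differences ran from -0.20 to 0.36 in ES and from -0.26 to 0.45 in RA samples. Phlda3 came nearest, with 0.45 in RA samples (limma adjusted p = 0.0412), below the limit of 0.5.

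**Figure D3:**
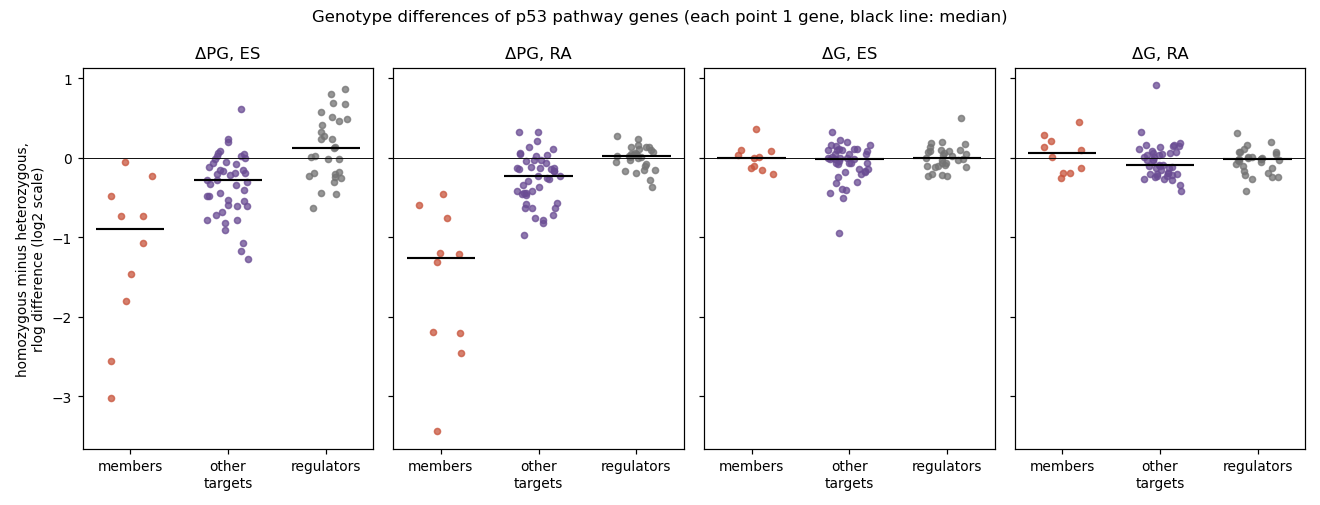
Homozygous minus heterozygous rlog difference (vertical axis, log2 scale) of the 10 genes, of 44 other p53 targets (43 in ΔG) and of 29 regulators, each point 1 gene and each line a median, for both lines and treatments. All 10 genes lie below 0 in ΔPG cells, and they lie between -0.26 and 0.45 in ΔG cells.

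With RA, 9 of the 10 genes were called in heterozygous ΔPG cells and 5 in each of the other kinds of cells. In heterozygous ΔPG cells 5 genes rose (Eda2r, Ccng1, Mdm2, Bbc3 and Trp53inp1) and 4 fell (Trp53, Cdkn1a, Bax and Sesn2), where 31.6% of all genes were called, 18% higher and 13.6% lower. In homozygous ΔPG cells 2 rose (Bbc3 and Phlda3) and 3 fell (Cdkn1a, Bax and Sesn2), against 27.8% of all genes, 16.5% higher and 11.3% lower. The ΔG cells gave these 5 calls too in either genotype, 2 higher and 3 lower, against 17.7% and 11.7% of all genes in heterozygous and 17% and 12.1% in homozygous cells. Genes with a mean rlog of at least 3 were called more often. In ΔPG cells 3177 of 11904 such genes rose and 2705 fell in heterozygous cells, and 2814 and 2253 in homozygous cells. In ΔG cells 3059 of 11997 rose and 2397 fell in heterozygous cells, and 3091 and 2478 in homozygous cells. A count of 5 of 10 lies near the rate of such genes. Bbc3, Cdkn1a, Bax and Sesn2 were called in the same direction in all 4 kinds of cells. Some of these calls were lost under other settings: Bbc3 in homozygous ΔPG and heterozygous ΔG cells, and Sesn2 in heterozygous ΔPG cells. Eda2r, Ccng1, Mdm2 and Trp53inp1 passed both limits in heterozygous ΔPG cells and not in the other kinds. In heterozygous ΔG cells Eda2r (0.42, limma adjusted p = 0.00249) and Trp53inp1 (0.39, limma adjusted p = 0.00097) missed only the limit of 0.5. Ccng1 had 0.25 (limma adjusted p = 0.0723) and Mdm2 -0.08 (limma adjusted p = 0.485) there. Eda2r had very low ΔG values (-0.56 to 0.05), where rlog shrinks differences, so that limit was hard to reach. With the GC trend removed, Trp53inp1 also passed in heterozygous ΔG cells (0.59) and Phlda3 in heterozygous ΔPG cells (0.52). Mdm2 then did not pass in heterozygous ΔPG cells (0.45).

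**Figure D4:**
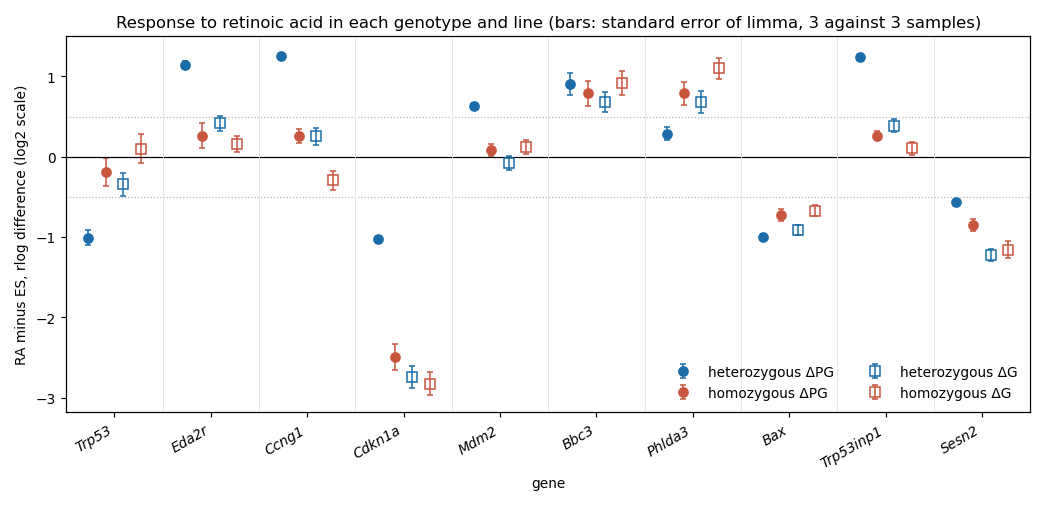
RA minus ES rlog difference (vertical axis, log2 scale, bars for the standard error) of each gene (horizontal axis) in heterozygous (blue) and homozygous (red) ΔPG (filled circles) and ΔG (open squares) cells, with dotted lines at the limit of 0.5. Eda2r, Ccng1 and Trp53inp1 rise by 1.14, 1.26 and 1.24 in heterozygous ΔPG cells and lie between -0.30 and 0.42 in the others.

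The difference of RA responses, homozygous minus heterozygous, was fitted over the 12 samples of a line. In ΔPG cells 4 of the 7 genes tested were called, 3 with a lower response in homozygous cells (Cdkn1a, Mdm2 and Trp53inp1) and 1 with a higher one (Phlda3), against 7.19% and 6.72% of all genes. Among the 11904 genes with a mean rlog of at least 3, 1480 were called lower and 1401 higher. Trp53, Eda2r and Ccng1 had differences of 0.82, -0.88 and -1.0, given with no test because these genes were chosen for their low level in homozygous cells. This contrast followed GC content across genes, with an r of 0.695, and the low-GC genes of the set lie on its negative side. With the GC trend removed, Cdkn1a had -1.75 (limma adjusted p = 2.39e-09), Sesn2 -0.71 (limma adjusted p = 2.53e-07) and Bbc3 -0.65 (limma adjusted p = 0.0169), all called. The other 3 lost their call, with -0.32 for Mdm2, -0.30 for Trp53inp1 and 0.01 for Phlda3. The untested differences were then 0.62 for Trp53, -0.26 for Eda2r and -0.48 for Ccng1. In ΔG cells, where r was 0.102, 1 of 10 genes was called, Ccng1 with a lower response, against 2.38% of all genes, 1.19% higher and 1.18% lower.

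**Figure D5:**
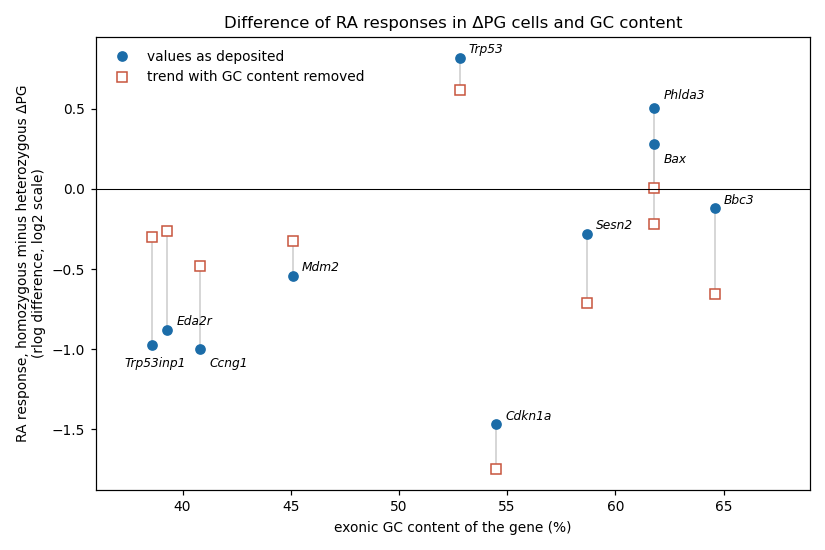
Difference of the RA responses between homozygous and heterozygous ΔPG cells (vertical axis, log2 scale) of each gene against its exonic GC content in percent (horizontal axis), as deposited (blue circles) and with the GC trend removed (red squares). Trp53inp1, at 38.6% GC, moves from -0.98 to -0.30, and Cdkn1a, at 54.5% GC, from -1.47 to -1.75.

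Mdm2, the ubiquitin ligase that restrains p53 (chromosome 10, 117125944 to 117147814, minus strand, NCBIM37), had values of 7.48, 7.45 and 7.56 in heterozygous and 7.39, 7.42 and 7.50 in homozygous ΔPG ESCs. The genotypes overlapped, although Trp53 differed 8.14-fold in the same samples. The log2 difference of Mdm2 was -0.06 there, and -0.28 with the GC trend removed. After RA treatment Mdm2 stood at 8.12, 8.13 and 8.12 in heterozygous and at 7.68, 7.45 and 7.43 in homozygous ΔPG cells. It rose with RA in heterozygous ΔPG cells by 0.63 (limma adjusted p = 6.41e-06, standard error 0.0391) and by 0.45 with the GC trend removed, which is below the limit. The responses of 0.09 in homozygous ΔPG cells (limma adjusted p = 0.413), -0.08 in heterozygous ΔG cells (limma adjusted p = 0.485) and 0.12 in homozygous ΔG cells (limma adjusted p = 0.274) did not pass. The responses of the ΔPG genotypes differed by -0.54 (limma adjusted p = 0.000395), and by -0.50, under the limit, without the third RA-treated homozygous sample. The 12 ΔG samples ran from 7.20 to 7.59.

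Cdkn1a, which encodes the cyclin-dependent kinase inhibitor p21 (chromosome 17, 29227924 to 29237667, plus strand, NCBIM37), fell with RA in every kind of cell. Its values were 7.48, 7.50 and 7.47 in heterozygous and 6.77, 6.71 and 6.79 in homozygous ΔPG ESCs, and 6.43, 6.51 and 6.46 against 4.64, 4.26 and 3.89 after RA treatment. The genotypes lay apart in both states, and more so after RA, with log2 differences of -0.73 and -2.20. The RA response was -1.02 in heterozygous (standard error 0.0419, limma adjusted p = 7.25e-07) and -2.49 in homozygous ΔPG cells (standard error 0.161, limma adjusted p = 1.78e-07). The difference of -1.47 between them passed the test (standard error 0.186, limma adjusted p = 4.20e-05). In ΔG cells the values were 6.08, 6.05 and 6.14 in heterozygous and 6.26, 6.22 and 6.07 in homozygous ES samples, and 3.19, 3.20 and 3.67 against 3.32, 3.65 and 3.10 in RA samples. There the response was -2.74 in heterozygous (limma adjusted p = 1.27e-09) and -2.83 in homozygous cells (limma adjusted p = 1.01e-11), and the difference of -0.09 was not called (limma adjusted p = 0.892).

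Ccng1, which encodes cyclin G1, a regulator of p53 and of the cell cycle (chromosome 11, 40562054 to 40568813, minus strand, NCBIM37), was highest in RA-treated heterozygous ΔPG cells. Its values were 8.26, 8.25 and 8.21 in heterozygous and 6.64, 6.78 and 6.92 in homozygous ΔPG ESCs, and 9.47, 9.53 and 9.51 against 6.94, 7.10 and 7.08 after RA treatment. The 4 groups did not overlap. It rose with RA by 1.26 in heterozygous ΔPG cells (limma adjusted p = 3.62e-08, standard error 0.0278), while the value of 0.26 in homozygous ΔPG cells was under the limit (limma adjusted p = 0.0275). In ΔG cells, whose values ran from 6.07 to 6.69 with all groups overlapping their neighbours in level, the responses were 0.25 in heterozygous (limma adjusted p = 0.0723) and -0.30 in homozygous cells (limma adjusted p = 0.0483). The difference between these, -0.55, was called (standard error 0.164, limma adjusted p = 0.0623), and it was not called without 8 of the 12 samples in turn. It also lost its call after quantile normalization and without a variance trend.

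Eda2r, a receptor of the TNF receptor family that binds ectodysplasin A2 (chromosome X, 94529179 to 94572555, minus strand, NCBIM37), followed the same order of groups. Its values were 5.70, 5.69 and 5.76 in heterozygous and 3.06, 3.15 and 3.24 in homozygous ΔPG ESCs, and 6.87, 6.85 and 6.85 against 3.54, 3.39 and 3.30 in RA-treated cells. No group overlapped another, and the genotypes differed by -2.57 in ES and -3.44 in RA samples. RA raised it by 1.14 in heterozygous ΔPG cells (limma adjusted p = 9.36e-07, standard error 0.0492), and the value in homozygous ΔPG cells was 0.26 (limma adjusted p = 0.197). In the ΔG table it ran from -0.56 to 0.05, below 0 in all samples but 1, with responses of 0.42 in heterozygous (limma adjusted p = 0.00249) and 0.16 in homozygous cells (limma adjusted p = 0.228), both under the limit of 0.5. Ccng1 and Eda2r both have exons of low GC content (40.8% and 39.3%). With the GC trend removed, their RA responses in heterozygous ΔPG cells were 0.87 and 0.70, still called. Their differences of RA responses between the ΔPG genotypes, not tested, then shrank from -1.0 and -0.88 to -0.48 and -0.26.

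Of the genes that act in apoptosis and survival, Bbc3 was called higher and Bax lower with RA in all 4 kinds of cells. Phlda3 was called higher in all but heterozygous ΔPG cells, where its rise of 0.29 was under the limit. Bbc3 encodes PUMA, which binds anti-apoptotic BCL2 proteins (chromosome 7, 16894965 to 16903554, plus strand, NCBIM37). Its values were 3.99, 4.39 and 4.49 in heterozygous and 3.05, 3.21 and 3.38 in homozygous ΔPG ESCs, and 5.24, 5.20 and 5.16 against 3.88, 4.17 and 3.96 after RA treatment. The response was 0.91 in heterozygous (limma adjusted p = 0.000895) and 0.79 in homozygous ΔPG cells (limma adjusted p = 0.00161), a difference of -0.12 that was not called (limma adjusted p = 0.758). In ΔG cells, from 2.88 to 4.04, it rose by 0.68 in heterozygous (limma adjusted p = 0.000354) and 0.92 in homozygous cells (limma adjusted p = 5.06e-05). Its response, with the GC trend removed and after quantile normalization, was under the limit in homozygous ΔPG cells (0.49 and 0.36) and in heterozygous ΔG cells (0.33 and 0.26).

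Phlda3, a repressor of AKT signalling (chromosome 1, 137662696 to 137665713, plus strand, NCBIM37), had values of 6.28, 6.31 and 6.52 in heterozygous and 4.63, 4.74 and 4.31 in homozygous ΔPG ESCs. After RA treatment the values were 6.73, 6.71 and 6.54 against 5.26, 5.25 and 5.54. Heterozygous cells were higher in both states, and the response to RA was larger in homozygous cells, at 0.79 (standard error 0.144, limma adjusted p = 0.000761), than in heterozygous cells, at 0.29 (limma adjusted p = 0.0211). The difference of 0.50 was called (limma adjusted p = 0.0426), but without 4 of the 12 samples in turn, after quantile normalization (0.27) or with the GC trend removed (0.01) it was not. In ΔG cells, from 3.73 to 5.14, it rose by 0.68 in heterozygous (limma adjusted p = 0.00115) and 1.10 in homozygous cells (limma adjusted p = 1.66e-06). The heterozygous ΔG response was under the limit with the GC trend removed (0.39) and after quantile normalization (0.26). In heterozygous ΔPG cells the response was 0.52 with the GC trend removed, and was called (limma adjusted p = 1.90e-06).

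Bax, whose product permeabilizes the outer mitochondrial membrane (chromosome 7, 52717065 to 52722268, minus strand, NCBIM37), fell with RA by -1.0 in heterozygous and -0.73 in homozygous ΔPG cells, and by -0.91 and -0.68 in ΔG cells (limma adjusted p from 8.04e-08 to 5.73e-06). In ΔPG ESCs it stood at 8.90, 8.91 and 8.86 in heterozygous and 8.07, 8.29 and 8.12 in homozygous samples, and after RA treatment at 7.83, 7.94 and 7.88 against 7.52, 7.35 and 7.43. In both states the heterozygous samples were higher. The responses differed by 0.28 between the ΔPG genotypes (limma adjusted p = 0.0248), under the limit, and by -0.22 with the GC trend removed (limma adjusted p = 0.0536), the opposite sign.

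Trp53inp1 and Sesn2 act in the response to stress. Trp53inp1 encodes a nuclear protein that promotes p53 activity and autophagy (chromosome 4, 11083578 to 11101526, plus strand, NCBIM37). Its values were 8.04, 8.09 and 8.04 in heterozygous and 7.89, 7.74 and 7.83 in homozygous ΔPG ESCs, and 9.33, 9.25 and 9.31 against 8.07, 8.06 and 8.12 in RA-treated cells. The RA-treated heterozygous samples stood above all others. It rose with RA by 1.24 in heterozygous ΔPG cells (limma adjusted p = 9.28e-08, standard error 0.0331). The value in homozygous ΔPG cells was 0.26 (limma adjusted p = 0.00238), under the limit. The difference of -0.98 was called (standard error 0.0617, limma adjusted p = 8.09e-08) and was -0.30 with the GC trend removed (limma adjusted p = 0.00158), under the limit. In ΔG cells, from 7.44 to 8.00, the responses of 0.39 in heterozygous (limma adjusted p = 0.00097) and 0.11 in homozygous cells (limma adjusted p = 0.3) were under the limit. The heterozygous ΔG response was 0.59 with the GC trend removed, and passed (limma adjusted p = 3.17e-08).

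Sesn2, a sestrin that restrains mTORC1 when nutrients are short (chromosome 4, 132047947 to 132066416, minus strand, NCBIM37), fell with RA by -0.57 in heterozygous and -0.85 in homozygous ΔPG cells, and by -1.22 and -1.16 in ΔG cells (limma adjusted p from 1.42e-08 to 2.09e-05). Its values were 8.18, 8.21 and 8.07 in heterozygous and 7.59, 7.79 and 7.64 in homozygous ΔPG ESCs, and 7.56, 7.59 and 7.60 against 6.78, 6.81 and 6.88 after RA treatment. The homozygous ES and the heterozygous RA samples overlapped, and the other groups did not. The heterozygous ΔPG response was -0.32 with the GC trend removed, which is under the limit.

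Levels of the targets were also set side by side between the separately normalized tables. In heterozygous ES samples, ΔG minus ΔPG was -2.43 for Phlda3, -1.98 for Ccng1, -1.40 for Cdkn1a and -1.22 for Bbc3, all below the gap of -0.79 that marks the lowest 5% of 11904 genes. Bax (-0.75), Trp53inp1 (-0.49), Sesn2 (-0.27) and Mdm2 (-0.16) were not below it. In homozygous ES samples, the gaps were -0.59 for Phlda3, -0.16 for Ccng1, -0.57 for Cdkn1a and -0.28 for Bbc3, where the lowest 5% lay below -0.37. In heterozygous RA samples they reached -3.11 for Cdkn1a and -2.98 for Ccng1, and in homozygous RA samples -0.91 and -0.71, where the lowest 5% lay below -0.37 and -0.31. For every target the gap was more negative between the heterozygous than between the homozygous samples of either treatment, in values that were not tested across tables. After RA it was -2.04 against -0.28 for Phlda3 and -0.66 against -0.08 for Bax. Gaps of all 11904 genes also spread wider in heterozygous ES samples. Their lowest and highest 5% lay beyond -0.79 and 0.87 there, and beyond -0.37 and 0.34 in homozygous ES samples. The part of GC content in these gaps was not tested.

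Most other p53 targets did not pass the test between the ΔPG genotypes, and those that did were lower in homozygous cells, with 1 exception. From a list of 44 further targets, 14 were called lower and 1 higher in homozygous ΔPG ESCs, where 6.29% and 6.87% of all genes were, and the list's median was -0.28, with 8 differences above 0. After RA treatment 9 were called lower and 0 higher, where 0.605% and 0.241% of all genes were, with a median of -0.23 and 9 differences above 0. Of these, 7 genes were called lower in both states, which is 50.0% of the ES and 77.8% of the RA calls. Over all genes, 35 were called lower in both, 2.53% of 1383 and 26.3% of 133. Among the 11904 genes with a mean rlog of at least 3, 1333 were called lower and 1442 higher in ES samples, and 116 and 47 in RA samples. The comparisons share no sample, but both set the same edited lines against each other. The list was written with earlier results of these data known, so it is not independent evidence of the direction. Ak1, an adenylate kinase (-1.27, limma adjusted p = 1.66e-05), and Psrc1, a spindle protein gene (-1.17, limma adjusted p = 2.34e-05), had the most negative differences in ES, and Rps27l, a ribosomal protein gene, was higher (0.61). In RA samples Slc19a2, a thiamine transporter (-0.98), and Zmat3, an RNA-binding zinc finger gene (-0.82), had the most negative differences. With the GC trend removed, 10 of the 39 targets with a mean rlog of at least 3 were called lower and 0 higher in ES samples, and 9 and 0 in RA samples. In ΔG ES samples the only target called was Ddit4, an inhibitor of mTORC1 signalling (-0.95).

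A list of 29 regulators and partners of p53 gave other counts. In homozygous ΔPG ESCs 6 were called higher and 1 lower, where 6.87% and 6.29% of all genes were, with a median of 0.12. Among the 11904 genes with a mean rlog of at least 3, 1442 were called higher and 1333 lower. For the regulators the counts were 1 and 0 with the GC trend removed. Among those higher were Sirt1, a deacetylase of p53 (0.86), and Rpl5, a ribosomal protein that binds Mdm2 (0.80), and Ppp1r13l, which encodes the p53 inhibitor iASPP, was lower (-0.63). None was called between genotypes in RA-treated ΔPG cells or in either state of the ΔG line.

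With RA, 12 of the 44 targets rose and 8 fell in heterozygous and 14 and 8 in homozygous ΔPG cells, and 12 and 8, and 14 and 9, of 43 in ΔG cells. Over all genes, 16.5% to 18% rose and 11.3% to 13.6% fell. Genes with a mean rlog of at least 3, as 39 of the targets had, were called more often. In ΔPG cells 3177 of 11904 such genes rose and 2705 fell in heterozygous cells, and 2814 and 2253 in homozygous cells. In ΔG cells 3059 of 11997 rose and 2397 fell in heterozygous cells, and 3091 and 2478 in homozygous cells. The targets' counts lie near the rate of such genes. The kinase gene Plk2 rose most in all 4 kinds of cells, by 2.66 and 2.94 in ΔPG and by 3.66 and 3.71 in ΔG cells. Perp, a desmosomal apoptosis effector, rose by 1.98 in heterozygous and 1.22 in homozygous ΔPG cells, and the difference of -0.76 was called (limma adjusted p = 0.00389). Among regulators, Hipk2, a kinase of p53, rose by 1.97 and 1.92 in ΔPG and 2.08 and 2.01 in ΔG cells. Cdkn2a, which encodes the Mdm2 inhibitor ARF and p16, rose by 1.23, 1.53, 2.25 and 1.66 in the same order. For the difference of RA responses between the ΔPG genotypes, 3 of 44 targets were called higher and 2 lower, and 1 of 29 regulators higher and 6 lower, where 6.72% of all genes were higher and 7.19% lower, so the targets' counts lie near the background. Among the 11904 ΔPG genes with a mean rlog of at least 3, 1401 were called higher and 1480 lower. The counts were, with the GC trend removed, 0 and 4 targets and 0 and 2 regulators.

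Across the 12 ΔPG samples, the profiles most like that of Trp53 among 5043 genes with a mean rlog of at least 3 and a range of at least 1 were those of 5430416N02Rik (Pearson's r 0.974), Hmha1 (0.971), Aen (0.951), Nagk (0.940) and Ak1 (0.939). The first is the edited gene itself, so its profile was set by genotype, and Aen and Ak1 are listed p53 targets. Among the 9 targets studied here, Eda2r ranked 20th (0.855), Phlda3 26th (0.834) and Trp53inp1 862nd (0.394), and Mdm2 had too small a range. With a range of at least 0.5, over 10399 genes, Cd81 (0.961) and Arfgap1 (0.948) replaced Nagk and Ak1 among the first 5. Eda2r then ranked 94th and Phlda3 128th. Trp53, Eda2r and Ccng1 were chosen for their low level in homozygous ΔPG cells, so their likeness is not independent of that choice. The 12 points fall into 4 groups and the values are descriptions.

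In RA-treated homozygous ΔPG cells, 4 of 8 endoderm markers were called lower than in heterozygous cells, with a mean over the list of 5.57 to 5.75 against 6.14 to 6.21, and no endoderm marker had a group mean under 1. In RA-treated ΔG cells 2 of the 8 were called lower in homozygous cells too, with a mean over the list of 6.09 to 6.14 against 6.38 to 6.43. In ES samples of either line none of the 8 was called. In homozygous ΔPG ESCs 2 of 6 neural markers were lower, with a mean over the list of 2.96 to 3.04 against 3.22 to 3.24, and 1 of 8 pluripotency markers was lower in ES and 1 in RA samples. No fibroblast or feeder marker was called in ES samples and 1 of 8 was lower in RA samples, where 1 of 8 RA-induced markers was higher. No trophoblast marker was called in either ΔPG state. Over all genes, 6.87% were called higher and 6.29% lower between ΔPG genotypes in ES samples, and 0.241% and 0.605% in RA samples. In RA-treated homozygous ΔG cells 1 of 8 fibroblast or feeder markers was lower. There 1 of 6 neural, 2 of 6 trophoblast and 1 of 8 RA-induced markers were higher, where 0.676% of all genes were higher and 1.46% lower. No listed marker was called between ΔG ES genotypes. The part of these markers in the differences of the 10 genes was not tested.

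In 4C-seq with the promoter of 5430416N02Rik as bait, 5 of the 10 genes (Trp53, Cdkn1a, Phlda3, Bax and Sesn2) lay in a region called in both replicates, and 8 in a region of either, where 38.4% and 68.0% of 21887 protein-coding genes did. The region ends matched HindIII sites of GRCm38 rather than of NCBIM37, so gene positions of GRCm38 were used.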

How the data were processed

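Total RNA (TruSeq Stranded, Ribo-Zero) was sequenced from 24 samples. Per the study's methods, reads were mapped with TopHat2 2.1.0 to NCBI37/mm9 with GENCODE vM1, duplicates were removed with Picard, and reads were counted by strand with HTSeq 0.6.0. The deposited values are rlog values on a log2 scale that the authors made with DESeq2 1.14.1, separately for 12 ΔPG and 12 ΔG samples. Whether the transformation was blind to the groups is not given in the sources used here. It shrinks low genes, so differences understate count folds. Counts were not used here and depth per sample is unknown. The 4C-seq regions were used by position only.

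Each table was fitted with limma 3.58.1 (R 4.3.3, variance trend) over the genes that vary, 21979 in ΔPG and 22048 in ΔG, with 6 samples for a comparison and 12 for a difference of RA responses. A call needed a Benjamini-Hochberg adjusted p under 0.1 over all genes and a log2 difference beyond 0.5. The GC trend was removed by lowess (span 0.3) of each sample's deviations on exonic GC content, over genes with a mean rlog of at least 3. Alternatives were quantile normalization, no variance trend, a mean rlog of at least 3, 1 fit over all 12 samples, stricter limits, the replicate number as a block and each sample left out. The fit was tested on simulated data.

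The members and lists were chosen with earlier results of these data known. Of the listed targets and regulators, up to 2 called genes with the largest difference in each direction, and no overlap between groups, could be named per comparison.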

Additional observations from a re-analysis of the deposited data

Results flagged for a closer look

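Between heterozygous and homozygous ΔPG cells, 4 of the 7 genes tested differed in their RA response by the test of the difference itself. The values, homozygous minus heterozygous, were -1.47 for Cdkn1a, -0.54 for Mdm2, -0.98 for Trp53inp1 and 0.50 for Phlda3. Cdkn1a kept its call under 18 of 18 alternatives, with -1.75 to -1.28 (limma adjusted p from 2.39e-09 to 0.000681). Trp53inp1 kept it under 17 and Mdm2 under 15, with -1.03 to -0.30 and -0.62 to -0.32. Phlda3 kept it under 11, with 0.01 to 0.59. Across genes this contrast followed exonic GC content (r 0.695). With that trend removed, Cdkn1a was called and the other 3 were not, and the cause was not tested.

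In ΔG cells Ccng1 differed in the same way, by -0.55, and kept its call under 7 of 18 alternatives, with -0.68 to -0.42 (limma adjusted p from 0.0252 to 0.204).

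In homozygous cells the RA response of Ccng1 was 0.56 higher in the ΔPG than in the ΔG line. Each RA-treated sample lay above the ES mean in ΔPG and below it in ΔG cells, and the difference was not tested, since the tables were normalized separately.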

How the results depend on the processing

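Of 1066 tested results of the 10 genes under an alternative, 1007 kept direction and side of the limits, 31 lost a call, 7 gained one and 21 turned sign, and none of 314 untested values turned sign. Genes called higher with RA in homozygous ΔPG cells numbered 1 after quantile normalization and 1 with the GC trend removed, and in heterozygous ΔG cells 0 and 1. For the difference of RA responses in ΔPG cells, 0 were called higher after quantile normalization, at an adjusted p under 0.05 with a fold over 1.5, or with the GC trend removed. In ΔG cells 0 were called lower after quantile normalization, without a variance trend or at the stricter limits. With the GC trend removed, 0 other targets were higher in homozygous ΔPG ESCs. Signs turned after quantile normalization for the RA response of Eda2r in homozygous ΔPG cells (-0.16) and of Trp53 in homozygous ΔG cells (-0.15), and with the GC trend removed for the difference of responses of Bax in ΔPG cells (-0.22) and the RA-treated genotype difference of Cdkn1a in ΔG cells (-0.000865). The cause was not tested. Of the 10 genes, 8 lay in a 4C-seq region of either replicate. Leaving out each sample in turn gave 0 to 1 genes called higher for the ΔPG difference of responses, 0 to 1 called lower for the ΔG one, and 0 to 1 called higher between RA-treated ΔG genotypes, where Phlda3 reached 0.58 without the third heterozygous sample. Values with a turned sign then ran from -0.22 to 0.029 for Bbc3 (ΔPG difference of responses), -0.0605 to 0.28 for Trp53 (homozygous ΔG response), -0.23 to 0.0722 for Cdkn1a and -0.0333 to 0.19 for Sesn2 (ΔG difference of responses). Between ΔG genotypes they ran from -0.0113 to 0.00432 for Eda2r, -0.0664 to 0.077 for Mdm2 and -0.055 to 0.15 for Phlda3 in ES, and -0.14 to 0.17 for Cdkn1a in RA samples. Samples with the same replicate number did not deviate together (correlations from -0.0255 to 0.0855), so the numbers do not pair them, and with the replicate block 0 of 77 results of the 10 genes changed call or sign.

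Over all genes, calls fell with the GC trend removed from 3056 to 1122 for the ΔPG difference of responses and from 2893 to 865 between ΔPG ES genotypes. With the replicate block they fell from 186 to 112 between RA-treated ΔPG and from 217 to 44 between ΔG ES genotypes. At the stricter limits the ΔG counts fell from 524 to 268 for the difference of responses, from 217 to 117 between ES and from 471 to 275 between RA-treated genotypes. Depth is unknown, so no counting error can be given.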
